A study of Homo sapiens with 4 samples.

Results

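The SALL and ZIC zinc finger factors, the PAX paired-box factors, the homeodomain factor SIX4 and its cofactor EYA1 are regulators of embryonic development. This account follows 9 of them in a breast cancer line: SALL1, SALL2, SALL4, ZIC2, ZIC5, PAX2, PAX8, SIX4 and EYA1. They were measured by 21 of the 44988 probe sets that the array's annotation pairs with exactly 1 gene symbol, and are 9 of the 18132 genes so named. The genes were listed with the difference between knockdown and control known. Their values below are therefore a description. The fit across all genes, described below, covered them too, but no p is given for any of them. Counts of members past a threshold are given beside the share of all genes and carry no weight as a test.

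Total RNA was measured on 4 Affymetrix PrimeView arrays, 2 labelled ELK3 knockdown (numbered 1 and 5) and 2 labelled ELK3 sh control (numbered 1 and 2). All 4 were labelled as Hs578T, a breast cancer line with mesenchymal features, grown in DMEM with serum and insulin. Knockdown cells were made stable by lentiviral shRNA against ELK3, an ETS factor that forms ternary complexes with SRF. The sequence carried by the control cells and the meaning of the array numbers (construct, clone or culture) are stated in no source used here, so p-values measure the spread between these arrays, which may be technical.

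The values are RMA signals on the log2 scale, a scale on which 1 unit is a 2-fold difference. The number of arrays, not a read depth, limits their precision. Array medians lay between 6.76 and 6.80 and lower quartiles between 4.98 and 5.05. An RMA table has no call of signal above background, so a gene near or below those quartiles is at the dim end of the array. The brightest probe set over the 4 arrays stands for a gene unless another is named.

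The labels were checked first. ELK3 stood at 8.09 and 7.92 in knockdown arrays 1 and 5, against 10.05 and 10.07 in control arrays 1 and 2. Of 15 measured genes of fibroblast-like mesenchymal cells, the features for which Hs578T is known, 15 fell in the knockdown arrays (limma, adjusted p under 0.05). Their summed signal was 17.14 to 17.15 (log2) in the control arrays and 13.52 to 13.60 in the knockdown arrays. VIM, the intermediate filament vimentin, was still bright in the knockdown arrays, with a mean of 13.12 against 14.29. TGFBI, which encodes an adhesion protein of the matrix, was at 5.47 against 14.16, and FN1, the matrix protein fibronectin, at 7.89 against 14.07. CDH11, a mesenchymal cadherin, was at 3.69 against 10.87, POSTN at 4.29 against 13.61 and LUM at 4.57 against 11.87. CDH11, POSTN and LUM were chosen here after their values were seen. VIM and FN1 stayed above the array medians. Several other markers of the labelled line were thus at the dim end in the arrays labelled ELK3 knockdown. Genes known from another line, HEK293, were bright there (values below). At these markers the arrays go against their cell line label. Whether they hold Hs578T cells was not tested, and each knockdown minus control value below may therefore compare different cells rather than the knockdown alone.

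SALL proteins are zinc finger repressors that bind the NuRD deacetylase complex and act in the embryonic kidney, limb and nervous system. SALL4 is also known from pluripotent cells and is switched on again in some cancers. ZIC proteins are zinc finger factors related to the GLI factors and pattern the neural tube and neural crest. PAX2 and PAX8 are close relatives that direct kidney formation, and PAX8 also acts in the thyroid. Homeodomain proteins of the SIX4 family bind DNA and recruit EYA proteins, which are coactivators and phosphatases, in a network that also holds DACH factors and forms sensory placodes, kidney and muscle.

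The members went in both directions. On the log2 scale the knockdown minus control difference was above 1 for 2 members, SALL2 and ZIC5, and below -1 for 2 members, SALL1 and PAX8. Over all genes 10.2% lay above 1 and 7.52% below -1 (17.7% in all). Without knockdown array 5, 3 members lay above 1 and 1 below -1, and without control array 2, 3 lay above 1. With the mean of a gene's probe sets the 2 above 1 were SALL2 and EYA1, and SALL1 alone lay below -1. In the fit across all genes, 5 members were called higher, 2 lower and 2 were not called, where 29.5% of all genes were called higher and 21.3% lower (50.8% in either direction). The groups did not overlap for the same number of members, 5 higher and 2 lower, and over all genes they were apart for 38.5% higher and 36.8% lower (75.3% in all). Of the 21 probe sets of the members, 12 were apart higher and 7 lower, beside 37.3% and 37.6% of all probe sets. More than 1 log2 unit higher were 5 and lower 3 of them, beside 8.79% and 8.1% of all. The members were chosen on this contrast, so nothing is read from these shares. The median difference of the 9 was 0.63, beside -0.010 for all genes.

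**Figure D1:**
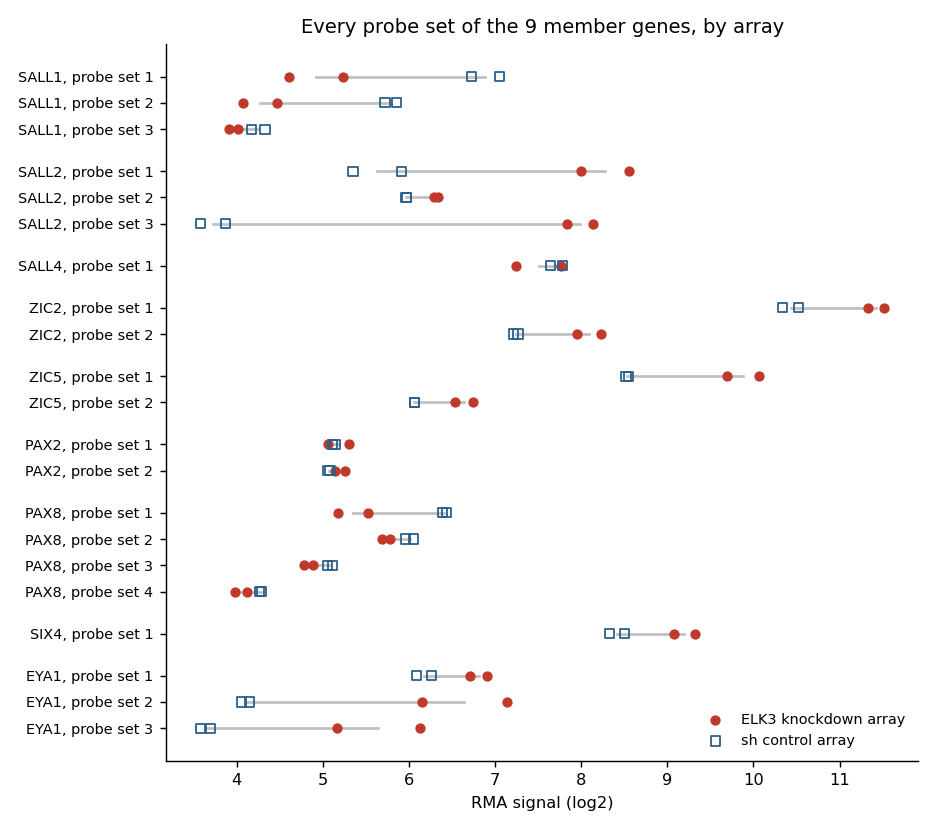
RMA signal (log2, horizontal axis) of each of the 21 probe sets of the 9 members, numbered within a gene from the brightest, with knockdown arrays as filled circles, control arrays as open squares and a grey line between the group means. The widest gaps are those of SALL2 (probe set 3, then probe set 1), with knockdown arrays to the right, while the points of SALL4 and of the first PAX2 probe set overlap.

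SALL2 was the member with the largest difference, and it was higher in the knockdown arrays. It encodes a SALL protein best known from the developing brain and eye and has been described as a growth inhibitor. Its brightest probe set read 7.998 and 8.56 in knockdown arrays 1 and 5, and 5.35 and 5.91 in control arrays 1 and 2. The arrays of each group lay 0.56 apart, far less than the distance between the groups. The means were 8.28 ± 0.40 (SD, n = 2) and 5.63 ± 0.40 (SD, n = 2), a 6.27-fold difference (2.65 on the log2 scale). A larger rise than that of SALL2 was measured for 339 genes, or 1.87% of those tested.

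The 3 probe sets of SALL2 shared the direction but not the size. The third in brightness read 7.83 and 8.13 against 3.87 and 3.58, a difference of 4.26, or 19.15-fold. The second read 6.29 and 6.33 against 5.97 and 5.97, a difference of 0.34. The names of all 3 SALL2 probe sets mark them as possibly cross-hybridising, so their signal may not be that of SALL2 alone.

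SALL1 was lower in the knockdown arrays. It encodes the factor mutated in Townes-Brocks syndrome and is needed for the first outgrowth of the ureteric bud into the kidney mesenchyme. Its signal was 5.24 and 4.61 in knockdown arrays 1 and 5, and 7.05 and 6.73 in control arrays 1 and 2. Both knockdown arrays lay below both control arrays, and knockdown array 5 was the lowest. The mean was 4.92 ± 0.44 (SD, n = 2) against 6.89 ± 0.23 (SD, n = 2), a 3.90-fold difference (-1.96 on the log2 scale). Its second probe set differed by -1.52 and the dimmest by -0.29. With the mean of all its probe sets, SALL1 stood at -1.26. A larger fall was measured for 591 genes, or 3.26%.

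SALL4 overlapped between the groups. Its sole probe set read 7.77 and 7.25 in the knockdown arrays and 7.64 and 7.78 in the control arrays. Knockdown array 1 lay between the controls and knockdown array 5 below them. The difference of the means was -0.20, and without knockdown array 5 it was 0.054, so its direction rests on that array.

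SALL3, the other human SALL gene and not a member, was 18.6-fold higher in the knockdown arrays (difference 4.22, SE 0.28, limma adjusted p = 1.76e-05). Its values were 8.83 and 8.67 against 4.07 and 5.003. The control arrays were both at the dim end and nearly 1 unit apart, and the second SALL3 probe set differed by 0.78. Averaged over both probe sets, SALL3 rose by 2.50. In this family SALL2 and SALL3 were therefore higher, SALL1 lower and SALL4 overlapping.

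ZIC2 and ZIC5, which lie next to each other on chromosome 13, were both higher in the knockdown arrays. ZIC2 is the factor whose loss causes holoprosencephaly, and ZIC5 acts in neural crest formation. ZIC2 read 11.52 and 11.33 in knockdown arrays 1 and 5, and 10.34 and 10.52 in control arrays 1 and 2. The groups were clear of each other. The mean was 11.43 ± 0.13 (SD, n = 2) against 10.43 ± 0.13 (SD, n = 2), a 1.99-fold difference (0.99 on the log2 scale). ZIC2 was bright in all 4 arrays. Its second probe set differed by 0.85, close to the first.

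ZIC5 read 10.06 and 9.70 in the knockdown arrays and 8.52 and 8.55 in the control arrays. The control arrays were nearly equal and knockdown array 1 was the highest, as for ZIC2. The mean was 9.88 ± 0.26 (SD, n = 2) against 8.54 ± 0.020 (SD, n = 2), a 2.54-fold difference (1.35 on the log2 scale). Its dimmer probe set gave 6.74 and 6.54 against 6.06 and 6.06, a difference of 0.58. Averaged over both, ZIC5 stood at 0.96.

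The other measured ZIC genes were dimmer and moved less. ZIC1, which acts in the cerebellum and neural crest, fell by 0.48 on the log2 scale (SE 0.11, limma adjusted p = 0.00863), from 5.19 and 5.20 to 4.60 and 4.83. Without knockdown array 1 its fall was 0.37 and no longer passed (adjusted p = 0.050), and averaged over both probe sets ZIC1 was at -0.28. ZIC4 stood at 0.084 and did not pass.

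The promoters of SALL2, the member that differed most, and of the neighbours ZIC2 and ZIC5, which differed in the same direction, are shown for the ETS cores they hold. Each run below holds the 250 bases before an annotated start (for ZIC5, the first of 3 in the table), from RefSeq on GRCh38.p14, read 5′ to 3′ on the gene's own strand. Capitals mark GGAA, the core of ETS sites, on either strand (as TTCC where it lies on the opposite strand). SALL2 is at chr14:21537122-21537371 on the minus strand, ZIC2 at chr13:99981534-99981783 on the plus strand and ZIC5 at chr13:99971910-99972159 on the minus strand.
SALL2: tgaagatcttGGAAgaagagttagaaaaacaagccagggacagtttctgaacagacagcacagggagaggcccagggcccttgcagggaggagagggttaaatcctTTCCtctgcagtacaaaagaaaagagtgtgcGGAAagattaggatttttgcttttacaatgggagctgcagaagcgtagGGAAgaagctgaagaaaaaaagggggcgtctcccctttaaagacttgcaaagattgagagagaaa
ZIC2: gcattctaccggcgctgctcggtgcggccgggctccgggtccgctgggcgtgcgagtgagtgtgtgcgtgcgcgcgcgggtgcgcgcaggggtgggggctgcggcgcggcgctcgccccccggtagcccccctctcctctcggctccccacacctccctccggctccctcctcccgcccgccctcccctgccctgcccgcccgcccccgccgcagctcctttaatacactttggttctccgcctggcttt
ZIC5: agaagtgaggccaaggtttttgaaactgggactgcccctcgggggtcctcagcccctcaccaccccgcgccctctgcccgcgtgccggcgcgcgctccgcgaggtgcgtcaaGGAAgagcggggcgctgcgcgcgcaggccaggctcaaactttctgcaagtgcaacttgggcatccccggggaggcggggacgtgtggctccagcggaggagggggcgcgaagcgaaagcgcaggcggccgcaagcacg

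SALL2 held 4 GGAA cores in this window, ZIC5 held 1 and ZIC2 held 0. SIX4 and PAX8, which was lower in the knockdown arrays, also held 4. PAX2, which overlapped, held 6 at its first start and 1 at its second. The median over all windows was 3. The core is common: 92.7% of the 35114 promoter windows of this length hold it at least once. The longer ETS site CCGGAAG, which contains the core, was searched on both strands and is present in 8.52% of those windows. The CArG box of SRF, the DNA-binding partner of ternary complex factors, is present in 1.16%. Neither letter string occurred in the 9 windows of the 6 members with an entry (SALL2, ZIC2, ZIC5, PAX2, PAX8 and SIX4). That says only that these letters are not in these windows. The windows also differed in base composition, with 46.0% G and C in SALL2, 75.6% in ZIC2 and 70.4% in the ZIC5 window shown (61.6% and 64.8% at its other starts), against a median of 58.0% over all windows.

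PAX8 was lower and PAX2 overlapped. PAX8 drives thyroid and kidney differentiation and is used as a marker of renal and ovarian tumours. It read 5.52 and 5.18 in knockdown arrays 1 and 5, and 6.43 and 6.39 in control arrays 1 and 2. The control arrays were almost equal, and both knockdown arrays lay below them. The mean was 5.35 ± 0.24 (SD, n = 2) against 6.41 ± 0.032 (SD, n = 2), a 2.09-fold difference (-1.06 on the log2 scale). The other 3 probe sets of PAX8 gave -0.27, -0.25 and -0.23. With the mean of the 4, PAX8 stood at -0.45. In all 4 arrays it was below the array median.

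PAX2, which marks the ureteric bud and the condensing kidney mesenchyme, was at the dim end in each array. Its brighter probe set read 5.07 and 5.31 in the knockdown arrays and 5.11 and 5.14 in the control arrays. The control values lay between the knockdown values. The difference was 0.060, and it turned to -0.061 without knockdown array 5. The other probe set read 5.25 and 5.14 against 5.08 and 5.06, a difference of 0.13.

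Of the 7 other PAX genes measured, PAX6 passed. PAX6, a master factor of eye development, rose 8.18-fold (difference 3.03, SE 0.13, limma adjusted p = 2.42e-06), from 5.91 and 6.16 to 9.17 and 8.97. Its second probe set rose by 4.38 on the log2 scale, but its dimmest by only 0.48. Averaged over all its probe sets, PAX6 was at 2.63. PAX1, PAX3, PAX4, PAX5, PAX7 and PAX9 did not pass, with differences from -0.29 to 0.064. PAX3, a neural crest and muscle factor, stood at -0.018 by its brightest probe set, but its second probe set read 7.60 and 7.28 against 4.75 and 5.02. That probe set was picked out after its values were seen.

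SIX4, a homeodomain factor of muscle and sensory development, was higher in the knockdown arrays. Its sole probe set read 9.07 and 9.32 in knockdown arrays 1 and 5, and 8.51 and 8.33 in control arrays 1 and 2. The name of that probe set marks it as possibly cross-hybridising. The groups did not overlap. The mean was 9.20 ± 0.17 (SD, n = 2) against 8.42 ± 0.13 (SD, n = 2), a 1.71-fold difference (0.78 on the log2 scale).

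EYA1, the cofactor whose loss causes branchio-oto-renal syndrome, was higher by each of its 3 probe sets, by amounts that differed widely. The brightest read 6.71 and 6.91 against 6.26 and 6.09, a difference of 0.63, or 1.55-fold. The second read 6.15 and 7.14 against 4.06 and 4.15, a difference of 2.54, or 5.81-fold. The third read 5.16 and 6.13 against 3.70 and 3.58, a difference of 2.01, or 4.02-fold. By these dimmer probe sets knockdown array 5 stood about 1 unit above knockdown array 1, and the control arrays were at the dim end. With the mean of all 3, EYA1 stood at 1.73.

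The relatives of SIX4 and EYA1 included larger changes. SIX3, a forebrain and eye factor, rose by 1.46 (SE 0.12, limma adjusted p = 5.78e-05). SIX2, which maintains nephron progenitors, rose by 1.19 (SE 0.28, limma adjusted p = 0.00994), although its control arrays read 6.88 and 7.86. Without control array 1 the rise of SIX2 was 0.71 (adjusted p = 0.00513). SIX5 fell by 0.30 on the log2 scale (SE 0.10, limma adjusted p = 0.0436), a call lost without knockdown array 1 (adjusted p = 0.0776), without control array 1 (adjusted p = 0.209) and without control array 2 (adjusted p = 0.178). SIX6 did not pass, with a difference of -0.18.

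EYA4, known from hearing and heart muscle, rose 57.4-fold, from 4.22 and 4.05 to 10.03 and 9.93 (difference 5.84, SE 0.12, limma adjusted p = 1.89e-07). EYA2 rose 17.3-fold, from 4.06 and 4.20 to 8.26 and 8.24 (difference 4.12, SE 0.11, limma adjusted p = 3.83e-07). Both went from the dim end to above the array median. Averaged over all their probe sets, EYA4 was at 3.996 and EYA2 at 1.86. EYA3 did not pass, at -0.24. EYA1, EYA2 and EYA4 were thus higher, and EYA3 was bright in both groups, at 9.77 and 10.01.

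Among the 17 measured relatives of the 5 families outside the members, 6 rose, 2 fell and 9 did not pass. That is 47.1% called, beside 50.8% of all genes, and the median difference was 0.019 beside -0.010. The number that fell was 3 without knockdown array 5 and 1 without any other array. These relatives are what remained of the families once the members had been chosen with results known.

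**Figure D2:**
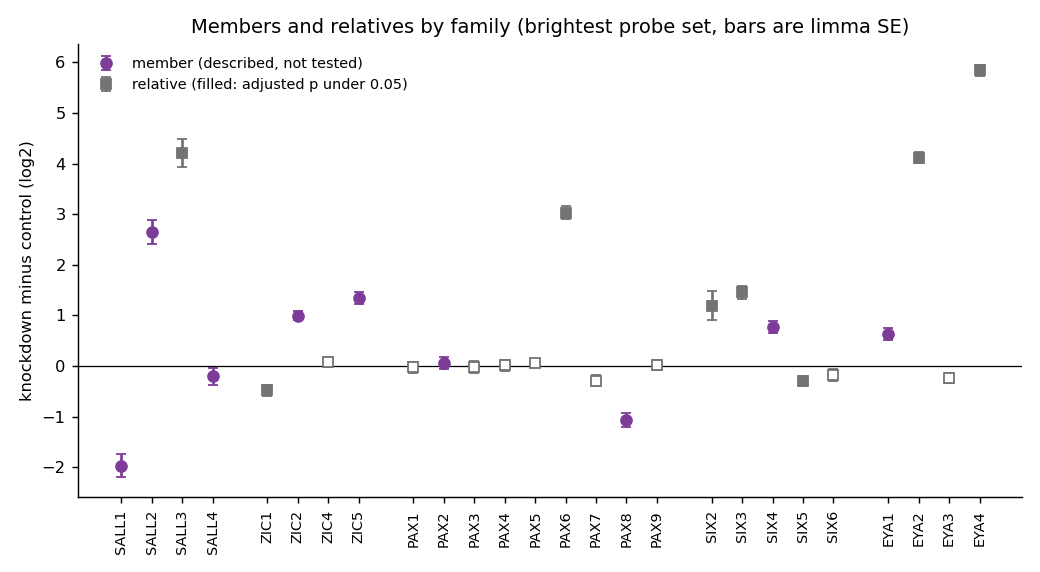
Knockdown minus control difference (log2, vertical axis) of each measured gene of the 5 families by its brightest probe set, with bars of 1 limma SE. Members (circles) are all filled, whether or not the fit called them, and relatives (squares) are filled where the adjusted p was under 0.05. EYA4 at 5.84 stands highest and SALL1 at -1.96 lowest, and 6 of the 7 PAX relatives lie near 0.

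The knockdown arrays differed from each other at several members more than at most genes. This comparison does not use the contrast that chose the members. Between knockdown arrays 5 and 1, SALL1 differed by -0.63, SALL2 by 0.56 and SALL4 by -0.52. A larger absolute difference was found for 1.27%, 1.82% and 2.48% of all genes, respectively, where the median over all genes was 0.114 and the 95th percentile 0.413. By their brightest probe sets the other 6 members lay within that percentile, the largest being ZIC5 at -0.37 and PAX8 at -0.35. The dimmer EYA1 probe sets did not. They read 6.15 and 7.14, and 5.16 and 6.13, in knockdown arrays 1 and 5.

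Between control arrays 2 and 1, SALL2 differed by 0.56, and 0.491% of all genes differed more. The median over all genes was 0.0830 and the 95th percentile 0.328. SALL1 was just within it at -0.33, and the other 7 members differed by 0.18 or less in size. By its brightest probe set SALL2 was thus among the most variable genes within each group, yet its groups were 2.65 apart. SALL1 likewise had knockdown arrays 0.63 apart and groups 1.96 apart, whereas for SALL4 the knockdown arrays were further apart than the groups. The other SALL2 probe sets varied less within the groups. The second read 6.29 and 6.33 in knockdown arrays 1 and 5, and 5.97 in both control arrays. The third read 7.83 and 8.13, and 3.87 and 3.58.

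**Figure D3:**
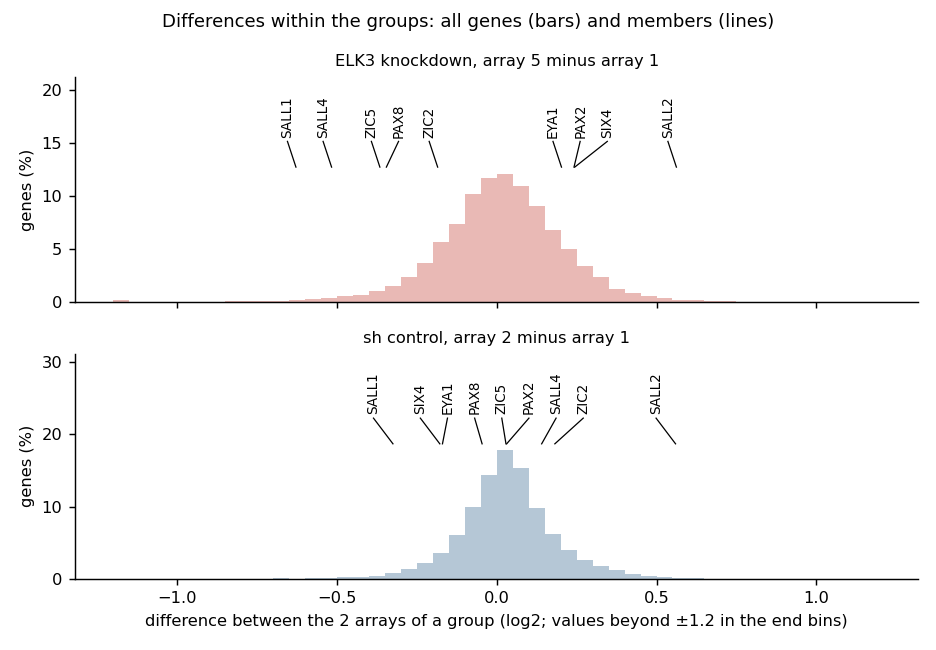
Difference between the 2 arrays of a group (log2, horizontal axis) as a share of all 18132 genes in percent (bars), above for the knockdown arrays and below for the control arrays, with lines for the 9 members. SALL1, SALL4 and SALL2 lie in the tails for the knockdown arrays, and SALL2 at 0.56 in the tail for the control arrays. Each gene is shown by its brightest probe set.

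The genes that flank the members in the RefSeq gene order were read next. Of 16 protein-coding neighbours outside the members, 12 were measured, of which 6 were called higher, 2 lower and 4 were not called (limma, adjusted p under 0.05), beside 29.5% higher and 21.3% lower of all genes. On either side of the ZIC5 and ZIC2 pair, CLYBL, a mitochondrial lyase gene, rose by 1.22 and PCCA, a propionyl-CoA carboxylase gene, by 0.54. With ZIC5 and ZIC2 these make 4 genes in a row on the higher side, 2 of them chosen for it. Beside SALL4, which overlapped, ATP9A rose by 0.88 and ZFP64 by 1.046. Beside PAX2, which also overlapped, HIF1AN, the asparagine hydroxylase of HIF, rose by 1.23 and SLF2 fell by 0.31 on the log2 scale.

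MNAT1, next to SIX4, rose by 0.51. MSC, which encodes the repressor musculin and lies next to EYA1, fell by 2.89 on the log2 scale, in the opposite direction to EYA1. The neighbours METTL3 and OR10G3 of SALL2, XKR9 of EYA1 and PSD4 of PAX8 did not pass, with differences from -0.33 to 0.17. The measured neighbours of SALL2 thus stood well below its own 2.65.

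Partners of these factors were also read. DACH1, the corepressor that works with SIX4-type factors and EYA proteins, rose by 3.02 (SE 0.14, limma adjusted p = 3.59e-06), from 4.33 and 4.60 to 7.37 and 7.60. GLIS2, a zinc finger gene mutated in nephronophthisis, rose by 1.61, or 0.71 averaged over both probe sets. GLIS3 and GLIS1 fell by 1.43 and by 1.11. Of the 8 DACH, GLI and GLIS genes, 2 rose, 3 fell and 3 did not pass (62.5% called). The hedgehog effectors GLI1, GLI2 and GLI3, named after their values were seen, were the 3 that did not pass.

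The NuRD subunits bound by SALL proteins moved in 12 of 14 genes, 8 higher and 4 lower, with a median difference of 0.64. That is 85.7% called, beside 50.8% of all genes. All 14 lay above the array medians in both groups, whereas the share of all genes includes dim ones. HDAC1 and HDAC2, the deacetylases of the complex, rose by 0.99 and 1.02 (limma adjusted p = 1.58e-05 and 2.41e-05), and HDAC1 was at 0.61 averaged over its probe sets. MTA3, a subunit that varies between forms of the complex, rose by 1.21. RBBP7, a histone chaperone subunit, fell by 1.41 on the log2 scale, while RBBP4, named here after its values were seen, rose by 0.77.

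Kidney development genes outside the members numbered 24, of which 11 rose, 4 fell and 9 did not pass (62.5% called), with a median difference of 0.26. TBX18, a factor of the ureter wall, rose 21.0-fold, from 3.83 and 4.51 to 8.70 and 8.42 (limma adjusted p = 5.54e-06). LHX1, a factor of the early nephron and duct, rose 19.3-fold (limma adjusted p = 4.001e-07), FRAS1, a basement membrane gene of kidney outgrowth, 9.63-fold (adjusted p = 1.12e-06) and BMP7, a survival signal of nephron progenitors, 6.76-fold (adjusted p = 1.38e-06). Averaged over all their probe sets, the 4 were at 3.16, 1.90, 1.80 and 3.82 on the log2 scale. WT1, a kidney and gonad factor named after its values were seen, rose by 1.81, and ITGA8, the integrin of the kidney mesenchyme, fell by 2.15 on the log2 scale. The receptor gene RET stood at 0.21 and OSR1 at 0.13, and neither passed. Both were at the dim end in both groups, RET at 4.54 against 4.32 and OSR1 at 4.19 against 4.06. ITGA8, RET and OSR1 too were chosen after their values were seen.

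Neural plate border and neural tube genes went both ways, with 6 higher, 7 lower and 6 not passing of 19 (68.4% called) and a median of -0.12. MSX1 and MSX2, homeobox factors of the neural border, rose by 2.84 and 2.18 (limma adjusted p = 1.12e-06 and 3.35e-06), and MSX2 stood at 1.41 once probe sets marked as cross-hybridising were dropped. SNAI2, which marks both neural crest and mesenchymal cells, fell by 6.56 on the log2 scale (adjusted p = 7.91e-07). DLX5 fell by 1.80, with an average of -0.90 over both probe sets. Of 12 preplacodal genes, 6 rose, 2 fell and 4 did not pass (66.7% called, median 0.25). ISL1, TBX1 and TLX1, factors of sensory and pharyngeal development, rose by 2.29, 2.25 and 1.07, and DLX5 counts in this list too.

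Genes known as targets of these factors in muscle and thyroid mostly did not pass. Many of those that did not were at the dim end in both groups, where a lack of change says little. Examples picked after their values were seen are MYOD1, at 4.67 against 4.65, and TSHR, at 4.41 against 4.50. Others, such as DES at 7.31 against 7.36, were brighter. Of 12 myogenic genes, 2 rose and 1 fell (25% called, median -0.044): MEF2C was higher by 1.61 and MYH3 by 0.84, and MET, a receptor gene activated by PAX3 in muscle precursors, was at -1.55. Of 9 thyroid genes, 1 rose and 1 fell (22.2% called, median -0.082). HHEX, a factor of thyroid and liver, rose by 3.80, and TG, which encodes thyroglobulin, fell by 0.56 on the log2 scale, and TG stood at -0.36 once probe sets marked as cross-hybridising were dropped.

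Of 14 pluripotency genes, 4 rose, 1 fell and 9 did not pass (35.7% called, median -0.028). LIN28B, which blocks let-7 maturation, rose by 6.30 (limma adjusted p = 2.26e-07), or 2.46 once probe sets marked as cross-hybridising were dropped. SOX2 rose by 2.43, DNMT3B, a DNA methyltransferase, by 2.13 and DPPA2 by 0.86. POU5F1 and NANOG, the core factors that work with SALL4 in stem cells and named here after their values were seen, stood at -0.024 and -0.15 and did not pass.

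Markers of other cell types moved with these groups. A list of 11 genes drawn up for the embryonic kidney line HEK293 was written with some of their changes known. Of them 8 rose, 0 fell and 3 did not pass, and the list's summed signal was 15.06 to 15.24 (log2) in the knockdown arrays and 11.25 to 11.26 in the control arrays. UCHL1, a neuronal deubiquitinase, was at 13.33 against 4.77, KRT18 at 12.85 against 10.65 and KRT8, its keratin partner, at 12.69 against 7.03. The neurofilament gene NEFM and BEX1 were at the dim end in both groups, with differences of -0.045 and -0.052, and INA, a neuronal filament gene, stood at 0.48 without passing; these 3 were named after their values were seen. The part of any such cells, and of the fall of the mesenchymal genes, in the values of the members was not tested.

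The remaining marker lists moved less. Of 11 epithelial genes 3 rose, 1 fell and 7 did not pass, with a summed signal of 10.32 to 10.38 against 9.43 to 9.44. OCLN, a tight junction gene, and ESRP2, a splicing factor of epithelia, rose by 2.73 and 2.67, and CLDN4 stood at 0.13. Of 10 neuronal genes 1 rose and 2 fell, with a summed signal of 10.32 to 10.34 against 12.03 to 12.09. TUBB3, a neuronal tubulin, fell by 3.13 on the log2 scale, NCAM1 rose by 0.68 and GAP43 stood at -0.20.

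Of 8 genes of mature kidney tubules 0 rose and 2 fell, at summed signals of 8.77 to 8.82 against 8.95 to 8.997. AQP2 fell by 0.41 on the log2 scale, and CDH16 and SLC34A1 stood at -0.19 and -0.031. Of 7 immune genes 0 rose and 1 fell, CSF1R at -1.06, with NKG7 at 0.0033 and CD3E at -0.21 and summed signals of 8.58 to 8.62 against 8.88 to 8.99. Of 7 endothelial genes 0 rose and 2 fell, PECAM1 at -0.58 and KDR at -0.49, with VWF at -0.23 and summed signals of 8.34 to 8.35 against 8.67 to 8.72. RMA values have no 0, so absence cannot be read from them.

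**Figure D4:**
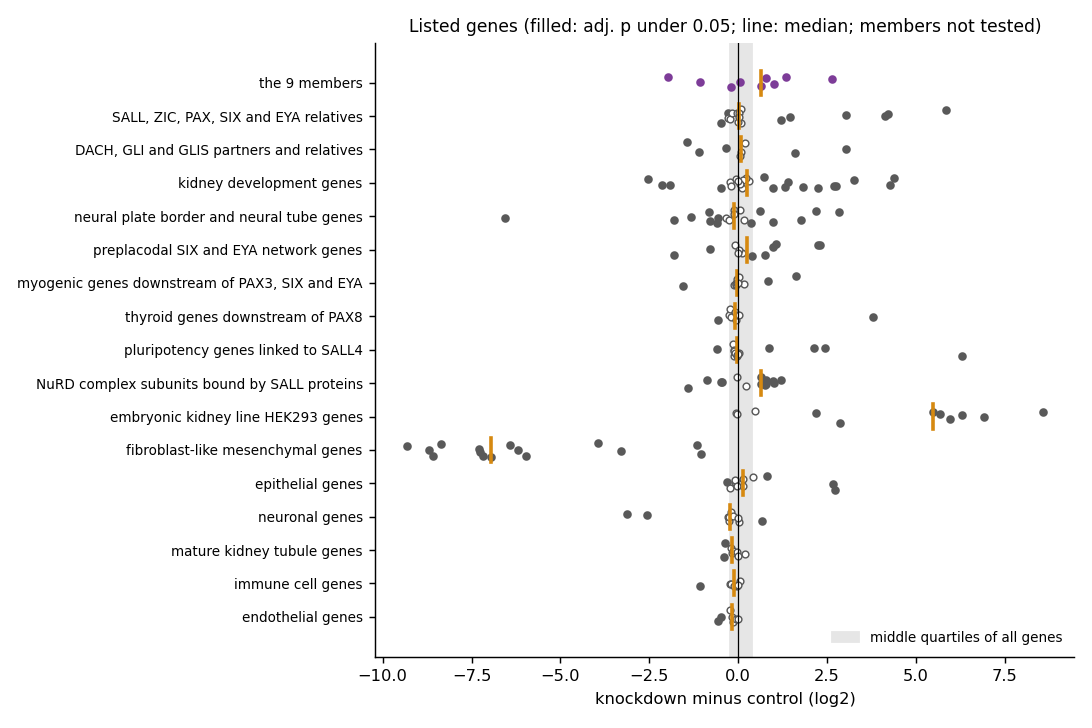
Knockdown minus control difference (log2, horizontal axis) of each gene of each list, with grey points filled where the adjusted p was under 0.05, an orange line at the list's median and the grey band over the middle quartiles of all genes. Members are drawn in purple and all filled, whether or not the fit called them, and no p is given for them. The median is -6.95 for the mesenchymal list, 5.49 for the HEK293 list and 0.63 for the members, and some genes of both lists lie within the members' range.

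By their 4 centred values, the genes outside the members nearest to the members' median pattern were DDIT4L, GRAMD1B, CLDN12, CLSTN3 and CDKN2B. Their Euclidean distances to it, over 4 arrays, were 0.0279, 0.0304, 0.0419, 0.0480 and 0.0489 log2 units. Their own differences lay between 0.58 and 0.64. Over 4 arrays in 2 groups such a likeness says little beyond the size of the group difference.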

How the data were processed

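Per the submitters' processing notes, the authors normalized the arrays with RMA, and the deposited values are log2 signals of 49293 probe sets per array. No source used here gives the RMA version or its settings. RMA equalises arrays and compresses dim signals, so folds of dim genes are set partly by the array's floor. The platform annotation named 44988 probe sets with 1 symbol, 1832 had several and 2473 are unnamed here, and 0 needed renaming through the GRCh38.p14 gene table. For each of the 18132 genes the probe set that was brightest on average was used.

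Groups were compared over all genes with limma 3.58.1 in R 4.3.3 (lmFit and eBayes with an intensity trend, group as the sole factor, two-sided, Benjamini-Hochberg adjustment, adjusted p under 0.05). Residual degrees of freedom were 2 and prior ones 4.83. The model was tested on simulated data with independent noise and far fewer changed genes than were called here. That test cannot show how well the p-values hold in these data. An exact permutation test of 2 arrays against 2 cannot go below p = 0.333. The members, the lists and the alternatives were chosen with earlier results of these data known. Named genes are the members, ELK3, the up to 4 largest called changes of each pathway list, each relative that was called, the 3 genes of each cell type list brightest in either group (a rule that favours large differences), the members' neighbours and the 5 genes of nearest pattern. Others are marked as chosen after their values were seen, except the measured relatives that were not called, which are all given. RefSeq promoters were matched by symbol for 6 of the 9 members, and those of SALL1, SALL4 and EYA1 were not used here. The motif GGAA was added after the data were seen. Figures were drawn with matplotlib 3.10.9. The comparison of protein sequences planned for the families was not run.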

Additional observations from a re-analysis of the deposited data

How the results depend on the processing

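The limits are few arrays, no call of signal above background, and probe sets that disagree in size for SALL1, SALL2, ZIC5, PAX8 and EYA1. No paired analysis was possible because the groups share only 1 replicate number. The direction of 7 members held under every alternative run on them. For the other two it turned without knockdown array 5: SALL4 to 0.054 and PAX2 to -0.061, and the cause was not tested. Leaving out single arrays, SALL4 ranged from -0.46 to 0.054 and PAX2 from -0.061 to 0.18. With 1 array left out at a time, a lone array is assumed to vary like the other group. Members more than 1 log2 unit lower then numbered 1 to 2, and relatives that fell 1 to 3. Members lower by that much numbered 1 with the mean of probe sets, relatives that fell also 1, and relatives that rose 7, against 6. Leaving out dim genes, which tests fewer genes and keeps 5 members, gave 25 listed genes higher and 15 lower, against 45 and 23. It left 3 relatives higher and 1 lower, and 0 members more than 1 unit lower. That 0 was fixed by the filter, which dropped SALL1 and PAX8, so their falls were not tested by it. Of the called relatives, SALL3, EYA2, SIX3 and ZIC1 were dropped too. With the threshold of the series' design text (fold over 1.5, unadjusted p under 0.05), 3469 genes were higher and 2284 lower, against 5354 and 3865, with 15 listed genes and 0 relatives lower. Quantile normalization, subtracted array medians, no intensity trend, robust moderation, tests of each probe set and leaving out cross-hybridising probe sets kept each of these counts within 1.5 times. The last of these drops such probe sets only where a gene has another, so SALL2 and SIX4 kept theirs and were not tested by it.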
